A study of Mus musculus with 2 samples.

Results

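The genes described here are 27 members of the pathway that makes cholesterol and of the sterol regulatory element-binding protein (SREBP) system that controls it, out of 21938 protein-coding genes examined. They were chosen by name for their place in the pathway: 19 enzymes, 7 regulators and 1 sterol transport protein. H3K27ac, a histone acetylation found at active promoters and enhancers, was mapped by chromatin immunoprecipitation and sequencing in macrophages grown from bone marrow of C57BL/6J mice. The cells received no stimulation, and there was 1 group of 2 biological replicates. The replicates were separate biosamples with the same donor entry, so the spread between them may leave out differences between animals. Sex and age were not collected, and the stage was unknown. No other condition exists in the series, so every value is a description of the unstimulated state.

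Animal cells build cholesterol from acetyl-CoA by way of mevalonate, farnesyl diphosphate, squalene and lanosterol. The SREBP proteins are held in the endoplasmic reticulum by the escort protein SCAP and the INSIG proteins while sterols are plentiful. When sterols fall, SCAP carries them to the Golgi, where site-1 and site-2 proteases (Mbtps1 and Mbtps2) release the part that enters the nucleus and binds sterol regulatory elements in the promoters of the pathway. In macrophages the same pathway stands beside the uptake of lipoproteins and dying cells, which brings cholesterol in from outside.

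A gene counted as marked if, in both replicates, a peak lay over or within 1 kb of at least 1 of its annotated transcript starts. The authors' fold of a peak, a linear enrichment ratio, was used as a rank within a list, as the percentile of peaks with the same or a lower fold. Where 2 folds are given, the first is replicate 1 and the second replicate 2. Ranks and widths refer to the replicated list of 32877 peaks unless a replicate is named; its values are the authors' own and carry no SD. The replicate lists held 29543 and 29345 peaks. How deeply the libraries were sequenced is not given in the sources used here. A gene with no peak was not called by the authors but need not lack the mark, and why no peak was called was not tested. The cell type label was checked against marker genes. All 10 macrophage markers, among them Spi1, Cd68 and Adgre1, were marked, and none of 23 markers of hepatocytes, fibroblasts, neutrophils, B cells, T cells and adipocytes was.

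Nearly the whole pathway carried H3K27ac at its promoters. Of the 27 genes, 26 (96.3%) were marked, the same number in each replicate, where 39.4% of all protein-coding genes were marked. Scap was the one gene without a promoter peak. The highest promoter peak of the marked members had a median fold of 15.1, from 6.22 at Acat2 to 39.4 at Insig1, where the median over all marked genes was 11.4. In rank, the median was the 82.4th percentile for the members and the 73.9th for all marked genes. Of the 26 marked members, 18 lay at or above the median rank of marked genes, 14 lay in the upper 20% of all peaks, 9 in the upper 10% and 5 in the upper 5%. Among all marked genes, 39.4%, 20.9% and 10.7% reached these levels.

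**Figure D1:**
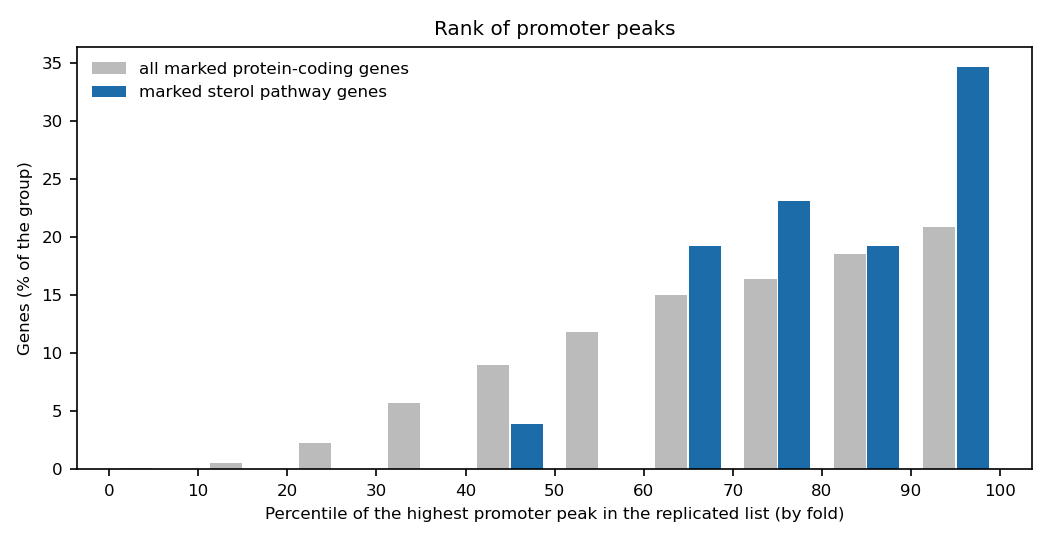
Share of genes (y axis, percent of the group) by the percentile of their highest promoter peak among the 32877 peaks of the replicated list (x axis, bins of 10 percentiles). Blue bars are the 26 marked sterol pathway genes and grey bars the 8633 marked protein-coding genes; 9 members stand in the highest bin, and Acat2 is the only one below the 50th percentile.

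The peaks were ordinary in width. The median width of the highest promoter peak was 1260 bp, from 648 bp at Mvk to 5001 bp at Fdps, against 1247 bp over all marked genes, and 13 of 26 members were at or above that median. The members had 1.81 promoter peaks on average, and marked genes 1.70. For the highest promoter peak of a member, the percentile differed between replicates by a median of 2.32 and by at most 16.1, at Ebp. It was higher in replicate 2 for 14 members and in replicate 1 for 12. At Hmgcs1, Sqle, Sc5d and Mbtps2, the peak taken was a different one in each replicate, so their ranks compare unlike peaks. Peak by peak, Sqle stood at 84.2 and 83.1 upstream and at 72.0 and 85.3 downstream. Mbtps2 stood at 66.6 and 51.5 upstream and at 48.4 and 53.7 downstream. The count of 7 members with a start of another protein-coding gene inside the promoter window bears on whose peak is measured. These pairs were Mvk with Mmab, Fdps with Gm43738, Ggps1 with Arid4b, Tm7sf2 with Vps51, Nsdhl with Cetn2, Dhcr7 with Nadsyn1 and Mbtps2 with Yy2. Over all genes, 14.6% had such a neighbour, and without the 7 members 19 of 20 were marked.

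**Figure D2:**
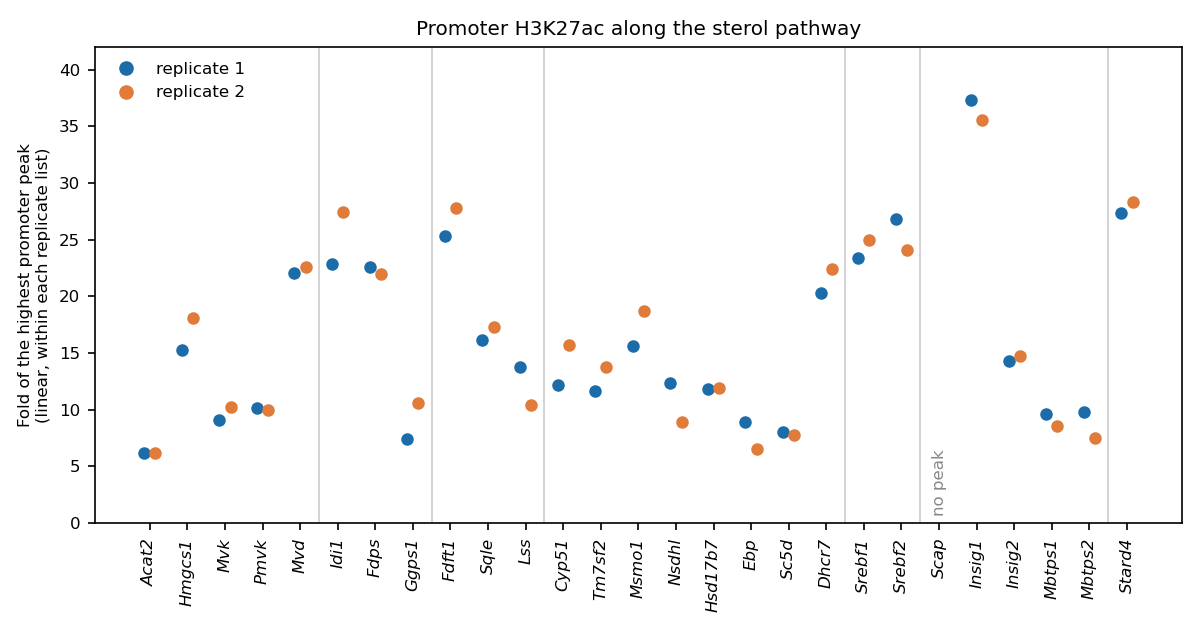
Fold of the highest promoter peak (y axis, linear, each replicate in its own list) for the 27 genes in pathway order (x axis), with vertical lines between the roles. Points are the replicates, 1 per library; Insig1 is the highest member in both, Acat2 the lowest, and Scap has no peak.

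The 5 genes that take acetyl-CoA to isopentenyl diphosphate were all marked, with a median rank at the 70.4th percentile, the lowest of the enzyme groups. Acat2, the cytosolic thiolase of the first step, had folds of 6.19 and 6.20, the lowest of any marked member, and its 6.22 in the replicated list was just below that list's median of 6.31. Hmgcs1 makes HMG-CoA from the product of Acat2. Its highest peaks had folds of 15.3 and 18.1. In replicate 1, a peak upstream and a peak downstream of its start were tied at 15.3, with 338 bp between them; in replicate 2 the upstream peak had 16.9 and the downstream peak, which covers the starts, 18.1. Mvk, mevalonate kinase, had folds of 9.12 and 10.2. Its highest peak, 648 bp, was the narrowest of the members in the replicated list. In the replicates that of Sc5d was narrower, 543 and 462 bp against 560 and 641 bp at Mvk. Pmvk, the next kinase, had 10.1 and 9.98. These peaks lay from 3680 to 5481 bp into the gene in replicate 1, at annotated internal starts, and no promoter peak was called at the Pmvk 5′ end in either replicate. Mvd, which closes this stretch by decarboxylation, stood apart with folds of 22.0 and 22.6 and a rank of 91.8 ± 0.088 (SD, n = 2, percentile in each replicate list). The ranks of the other 4 genes were between 43.9 and 86.5 in the replicates, so Mvd did not overlap any of them.

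The isoprenoid branch point held 3 marked genes with a median rank at the 92.8th percentile. Idi1, the isomerase of isopentenyl diphosphate, had folds of 22.9 and 27.5 and a rank of 93.9 ± 2.03 (SD, n = 2). Fdps makes farnesyl diphosphate, the last intermediate shared by sterols and the isoprenoid lipids, and had folds of 22.6 and 22.0. Its single peak measured 4102 bp and 3505 bp in the replicates, second in width to that of Srebf1 in both, and 5001 bp in the replicated list, the widest there. It also spans the start of Gm43738. Ggps1 leads away from sterols, to the geranylgeranyl diphosphate used for protein prenylation. It was lower, with folds of 7.41 and 10.6 and a rank of 61.2 ± 10.8 (SD, n = 2), below both Idi1 and Fdps in each replicate.

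Squalene formation and closure of the sterol ring had 3 marked genes of 3, at a median of the 86.0th percentile. Fdft1, squalene synthase and the first enzyme committed to sterols, had folds of 25.3 and 27.8, the highest of all 19 enzymes in both replicates. Its highest peak covered no annotated start: it ended 274 bp and 259 bp before the nearest one, and a second peak of fold 11.7 and 12.2 lay over the next starts. Sqle, squalene epoxidase and a rate-limiting oxygenase of the pathway, had 16.2 and 17.3, from different peaks. Its upstream peak had 16.2 and 15.9, and its downstream peak 11.2 and 17.3. Lss, which closes the ring to give lanosterol, had 13.8 and 10.4. Fdft1 was above both in each replicate.

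All 8 genes between lanosterol and cholesterol were marked, with a median rank at the 78.5th percentile. Dhcr7, the reductase of the last step from 7-dehydrocholesterol, was highest, with folds of 20.3 and 22.5. Msmo1 and Cyp51, which take methyl groups off lanosterol, had 15.6 and 18.7 and 12.2 and 15.8, respectively. Tm7sf2, a sterol C14 reductase, had 11.7 and 13.7, and Hsd17b7, a keto-reductase, 11.9 in both. Nsdhl, the decarboxylating dehydrogenase of the same demethylation, had 12.4 and 8.94. Ebp, the sterol isomerase, had 8.95 and 6.54, and Sc5d, the desaturase after it, 8.01 and 7.78. The Sc5d values came from different peaks, downstream of its 5′ end in replicate 1 and upstream in replicate 2. Ebp and Sc5d were the lowest of the 8 in both replicates. The peak of Dhcr7 lay 6121 to 6883 bp into the gene in replicate 1, at an internal start. The highest peak at its annotated 5′ end had folds of only 6.19 and 7.37, so with the 5′ end alone the rank of Dhcr7 in the replicated list fell from the 92.2nd to the 55.9th percentile.

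Both genes of the SREBP factors were among the highest ranks. Srebf2, whose product mainly drives cholesterol synthesis, had folds of 26.8 and 24.1 and a rank of 94.1 ± 1.54 (SD, n = 2). Srebf1 had 23.4 and 24.97 and a rank of 93.3 ± 0.605 (SD, n = 2). The ranks of the pair overlapped between replicates. Srebf1 makes the isoforms SREBP-1a and SREBP-1c from different first exons, and the RefSeq starts of isoforms a and c lie 10156 bp apart. The wide peak of 4234 bp and 3861 bp covered the start of isoform a in both replicates, but its summit lay at -1932 bp and -1926 bp relative to that start (negative is upstream), within 28 bp of the start of isoform d. The start of isoform c, the form known for insulin- and LXR-driven fatty acid synthesis, lay between 2 lower peaks. The upstream one had folds of 8.26 and 9.38 and the downstream one 11.2 and 12.1. The 250 bases before each of these starts are printed because they set the wide peak beside the divided one (RefSeq, GRCm38.p6, 5′ to 3′, capitals mark GGGCGG and CCAAT on either strand).
Srebf1 isoform a (chr11:60220628-60220877, minus strand): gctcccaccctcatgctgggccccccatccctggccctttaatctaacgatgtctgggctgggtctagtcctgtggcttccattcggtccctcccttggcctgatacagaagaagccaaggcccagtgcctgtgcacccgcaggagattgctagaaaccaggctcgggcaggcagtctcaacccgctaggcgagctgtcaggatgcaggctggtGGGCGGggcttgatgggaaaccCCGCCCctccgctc
Srebf1 isoform c (chr11:60210472-60210721, minus strand): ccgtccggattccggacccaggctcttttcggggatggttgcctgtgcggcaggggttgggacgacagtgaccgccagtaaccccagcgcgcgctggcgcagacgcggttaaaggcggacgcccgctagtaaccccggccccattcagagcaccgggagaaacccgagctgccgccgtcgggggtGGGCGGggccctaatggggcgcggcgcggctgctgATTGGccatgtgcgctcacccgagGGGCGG

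**Figure D3:**
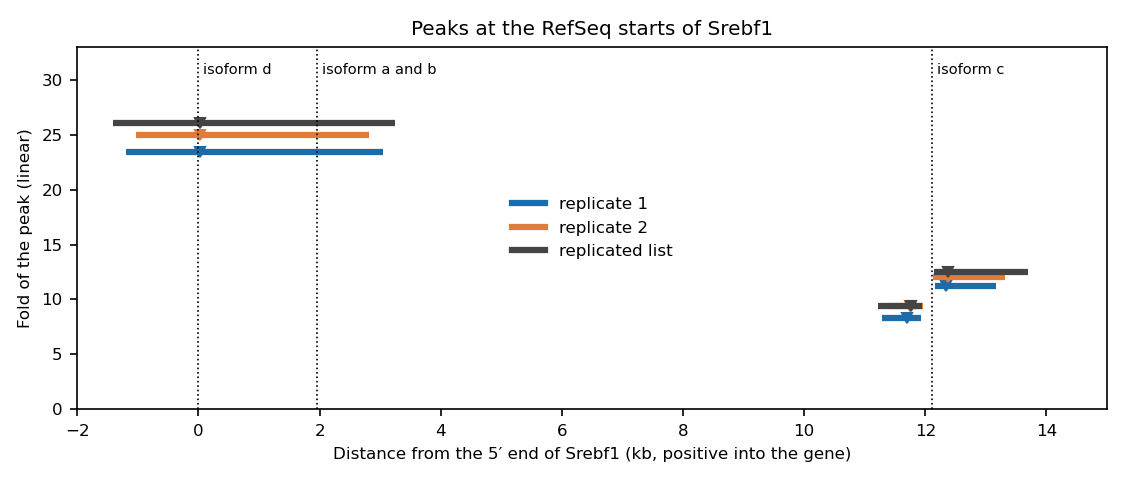
Peaks of Srebf1 as bars from edge to edge, at the height of their fold (y axis, linear), by distance from the 5′ end (x axis, kb), in each replicate and in the replicated list; triangles are summits and dotted lines RefSeq starts. The wide peak of 23.4 and 24.97 covers the starts of isoforms d, a and b, and the start of isoform c falls between the peaks of 8.26 and 9.38 and of 11.2 and 12.1.

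The genes that hold, carry and cut the SREBPs ranged from the highest fold of the members to no peak. Insig1, the retention protein that is itself a known SREBP target, had the highest fold of all members, 37.3 and 35.5, at a rank of 98.7 ± 0.352 (SD, n = 2). That peak lay upstream of the start, and a second one downstream had 24.8 and 22.8, which alone would place Insig1 among the upper 10% of each replicate list. Insig2, the paralog that is not driven by SREBP in the same way, was lower, with 14.3 and 14.7, and its peak lay over internal starts with the summit 4210 and 4246 bp into the gene. Mbtps1, the site-1 protease, had 9.64 and 8.55, and Mbtps2, the site-2 protease, 9.81 and 7.54. The Mbtps2 values came from different peaks: its upstream peak had 9.81 and 7.21, and its downstream peak 6.71 and 7.54. In both replicates Insig1 was above Insig2, and Insig2 above both proteases. Stard4, a carrier that moves cholesterol between membranes, had 27.4 and 28.3 and a rank of 95.7 ± 0.172 (SD, n = 2), second to Insig1 in both replicates by fold.

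Scap had no peak within 1 kb of any of its starts in any of the 4 lists. The nearest peak lay 27087 bp upstream in replicate 1 and 27188 bp in replicate 2, at the start of Elp6, with folds of 8.43 and 8.55. The ratio of observed to expected CpG within 500 bp of its 5′ end was 0.834. The median was 0.727 over the 23 members with a RefSeq promoter sequence, 0.734 over marked genes and 0.552 over all genes. The ratio at Scap was above the median of these 23 members. The lowest of the 23, Insig2 at 0.113, was one of the members marked at internal starts alone. Fdps, Fdft1, Sqle and Stard4 were not included. The sequence before the start of Scap is given because Scap is the only member with no marked start (RefSeq, GRCm38.p6, 5′ to 3′, capitals mark CACGTG and GGGCGG).
Scap (chr9:110333106-110333355, plus strand): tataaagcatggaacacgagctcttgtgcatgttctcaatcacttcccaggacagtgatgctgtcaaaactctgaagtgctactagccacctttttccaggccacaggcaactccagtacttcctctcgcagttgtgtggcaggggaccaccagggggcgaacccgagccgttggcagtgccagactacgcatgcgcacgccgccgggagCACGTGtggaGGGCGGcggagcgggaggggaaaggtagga

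Some of these promoters had starts between peaks. In 8 of 26 members (Mvk, Sqle, Sc5d, Dhcr7, Srebf1, Srebf2, Insig1 and Mbtps2), an annotated start lay in a gap with a peak on each side within 1 kb in both replicates. Over all marked genes this share was 24.2%, so the members stood near the background. The gaps measured 395 and 413 bp at Mvk, 363 and 320 bp at Sqle, 362 and 398 bp at Sc5d and 341 and 398 bp at Insig1. In 5 more members such a gap was seen in 1 replicate alone. At least 2 promoter peaks were called in both replicates at 14 of the 26 marked members, and at 40.0% of marked genes. Of the marked members 24 had a peak at the 5′ end itself, and 91.8% of marked genes did; Pmvk and Insig2 were the exceptions. By start, 113 of 167 annotated starts of the members were marked (67.7%), and 35.4% of all starts.

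**Figure D4:**
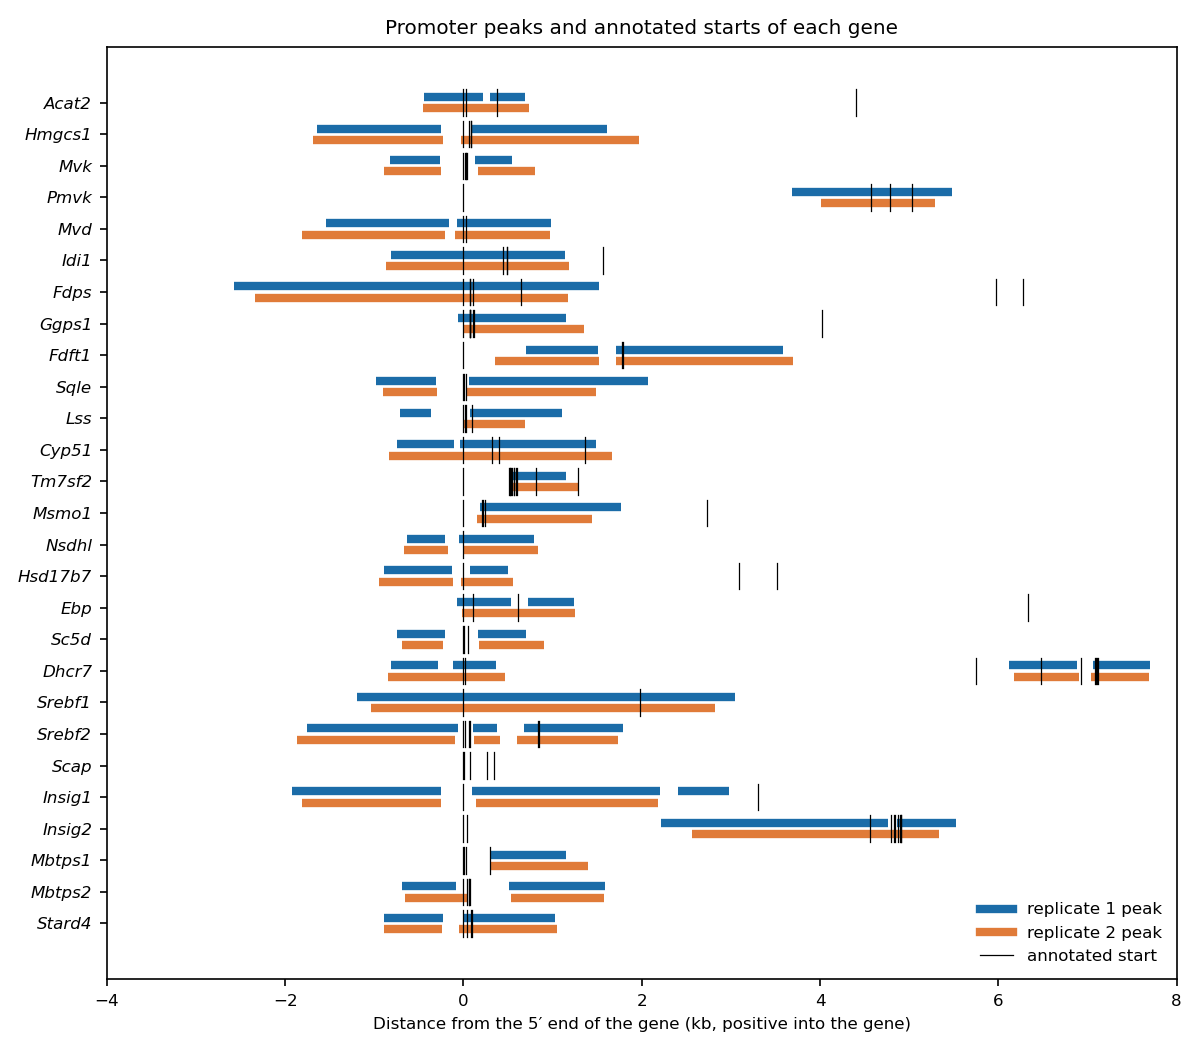
Promoter peaks of each member in replicate 1 (blue) and replicate 2 (orange) by distance from its 5′ end (x axis, kb), with annotated starts as black ticks. Starts of Mvk, Sqle and Insig1 lie between peaks, those of Pmvk and Insig2 that are covered lie inside the gene, Scap has no peak, and features beyond 8 kb, such as the isoform c peaks of Srebf1, are not drawn.

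Words that SREBPs and their partner factors are known to bind were searched on both strands from 250 bases before to 50 after the RefSeq starts of the 23 members with a promoter sequence; Fdps, Fdft1, Sqle and Stard4 were not included. The sterol element TCACNCCAC was found in 1 member, Hmgcs1 (4.35%), and in 1.42% of all genes and 1.35% of marked genes. With 2 open bases, TCACNNCAC, which takes in the first word, was found in 4 members, Hmgcs1, Msmo1, Hsd17b7 and Dhcr7 (17.4%), and in 4.24% of all and 4.18% of marked genes. The box CCAAT, bound by NF-Y, was found in 19 of 23 (82.6%), and in 42.1% of all and 43.6% of marked genes. At least 3 copies of CCAAT stood in 7 members (30.4%), where 6.50% of marked genes had as many. A gene counted through any of its RefSeq starts, marked or not. At Insig2, the CCAAT copies lay before the 5′ end, where no peak was called, and its internal starts had 0. The CCAAT box of Pmvk also lay before its unmarked 5′ end. GGGCGG, bound by SP1, was found in 20 members (87.0%) and in 69.1% of marked genes. CACGTG, the E-box, was found in 5 members (21.7%) and in 12.3% of marked genes. Within 500 bp of the 5′ end on either side, 6 members held TCACNNCAC (26.1%), and 11.3% of marked genes. In this wider window the other contrasts were smaller: CCAAT was found in 87.0% of members and 68.3% of marked genes, GGGCGG in 91.3% and 81.6%, and the E-box in 30.4% and 21.5%. These shares describe letters in a window and not binding, and genes of 1 pathway are not independent draws.

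The promoters with TCACNNCAC, and that of Insig1, are printed to show how these words lie together (RefSeq, GRCm38.p6, 250 bases before the start, 5′ to 3′, capitals mark TCACNNCAC, the E-box, the CCAAT box and the SP1 word on either strand). The window of Dhcr7 lies just past its annotated 5′ end, where its peaks were low. In Msmo1, the TCACNNCAC match overlaps the end of a CCAAT box by 1 base.
Hmgcs1 (chr13:119690101-119690350, plus strand): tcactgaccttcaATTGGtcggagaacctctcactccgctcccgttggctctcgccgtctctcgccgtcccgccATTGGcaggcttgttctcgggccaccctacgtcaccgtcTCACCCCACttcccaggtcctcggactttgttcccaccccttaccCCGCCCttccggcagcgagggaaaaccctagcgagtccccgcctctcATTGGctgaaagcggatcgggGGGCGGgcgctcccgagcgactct
Msmo1 (chr8:64733579-64733828, minus strand): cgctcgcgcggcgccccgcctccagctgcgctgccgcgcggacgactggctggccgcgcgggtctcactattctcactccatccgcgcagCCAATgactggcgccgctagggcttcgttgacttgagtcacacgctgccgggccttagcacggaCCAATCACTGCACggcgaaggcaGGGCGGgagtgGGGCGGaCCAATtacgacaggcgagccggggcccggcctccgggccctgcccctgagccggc
Hsd17b7 (chr1:169969206-169969455, minus strand): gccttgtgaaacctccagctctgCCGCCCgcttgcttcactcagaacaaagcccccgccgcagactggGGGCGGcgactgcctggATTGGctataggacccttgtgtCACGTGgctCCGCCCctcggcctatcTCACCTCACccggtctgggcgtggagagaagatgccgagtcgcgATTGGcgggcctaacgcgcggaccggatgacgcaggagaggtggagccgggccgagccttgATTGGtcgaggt
Dhcr7 (chr7:143823149-143823398, plus strand): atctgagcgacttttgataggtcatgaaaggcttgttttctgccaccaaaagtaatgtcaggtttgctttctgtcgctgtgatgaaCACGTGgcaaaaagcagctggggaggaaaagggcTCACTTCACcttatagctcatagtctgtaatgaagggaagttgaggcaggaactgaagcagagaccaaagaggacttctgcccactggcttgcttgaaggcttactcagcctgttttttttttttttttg
Insig1 (chr5:28071162-28071411, plus strand): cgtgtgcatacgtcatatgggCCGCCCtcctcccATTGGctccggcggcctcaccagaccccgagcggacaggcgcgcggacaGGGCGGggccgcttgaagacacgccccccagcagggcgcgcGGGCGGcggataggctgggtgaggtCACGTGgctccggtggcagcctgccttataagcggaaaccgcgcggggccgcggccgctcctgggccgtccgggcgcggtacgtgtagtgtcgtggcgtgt
The matches were placed against the peaks of each replicate. Of the 4 matches of TCACNNCAC, 2 (Hmgcs1 and Hsd17b7) lay between peaks in both replicates, 1 (Dhcr7) inside a peak and 1 (Msmo1) outside, upstream of the peak. Of 42 CCAAT boxes, 16 lay between peaks in both replicates, 8 inside a peak in both, 10 outside and 8 in different places in the replicates. Mvk held 5 of the boxes that lay between peaks. Of the 5 matches of CACGTG, 3 (Hsd17b7, Sc5d and Insig1) lay between peaks in both replicates. Of 47 matches of GGGCGG, 17 lay between peaks in both replicates, 12 inside a peak in both, 7 outside and 11 in different places. In replicate 1, 25 of them lay between peaks and 14 inside, and in replicate 2, 18 between and 19 inside, so the replicates differed in which place was more common. The same placement was not computed for other genes, so whether it is particular to these promoters was not tested.

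Distal peaks were fewer around the members than around marked genes, while the share of members with one was near that of all genes. A peak of replicate 1 counted as distal if it kept more than 1 kb away from all protein-coding starts and also overlapped a peak of replicate 2, and it was given to each gene whose 5′ end lay within 25 kb of its midpoint. Of the 27 members, 7 had one (25.9%), and 26.0% of all genes and 45.1% of marked genes did. The mean was 0.259 distal peaks per member, against 0.889 per marked gene and 0.481 per gene. Within 10 kb the means of members and all genes were closer, 0.148 and 0.187. No member had more than 1 within 25 kb, so the mean of 0.259 rests on 7 peaks. The highest stood near Hmgcs1, 23053 bp past its 5′ end and inside Nim1k, with folds of 19.8 and 18.1, not below the promoter peaks of Hmgcs1 in either replicate. The one near Mbtps2 lay inside that gene, 12918 bp from its 5′ end, with 11.01 and 10.1, above its promoter peaks in both replicates. The one near Tm7sf2, 5680 bp upstream and inside Vps51, had 8.61 and 11.5. That near Msmo1 was inside the gene with 7.57 and 9.38, and that near Srebf2, also inside the gene, had 5.69 and 8.71. The one inside Mvd had 6.19 and 4.36, and the one inside Lss, the lowest in both replicates, 4.65 and 4.02.

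The distance limit left out peaks of high rank. The member just inside the limit was Hmgcs1, at 23053 bp, and the one just outside was Ebp, at 25431 bp. Beyond it, an intergenic peak 33944 bp upstream of Insig1 had folds of 31.7 and 30.3 and stood at the 97.5th percentile of the replicated list, and Insig1 had the nearest annotated protein-coding start. At 100 kb the members had 1.19 distal peaks on average, marked genes 3.08 and all genes 1.97, so the members stayed below both.

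**Figure D5:**
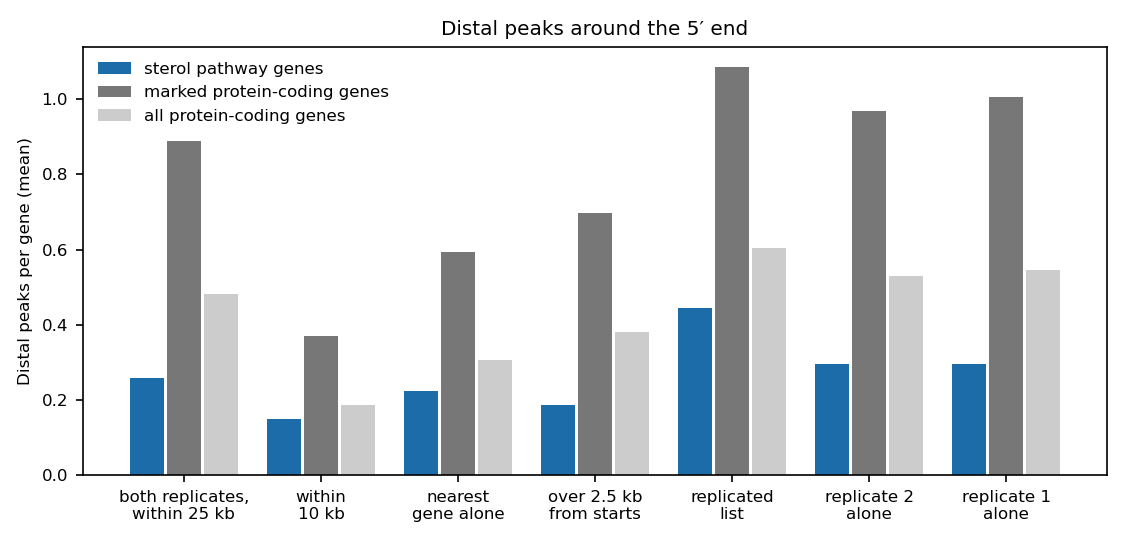
Mean number of distal peaks per gene (y axis) under 7 definitions (x axis) for the sterol pathway genes (blue), marked genes (dark grey) and all protein-coding genes (light grey). The members are lowest under each of them, at 0.259 against 0.889 and 0.481 under the definition used in the text.

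Genes around the pathway were mostly marked as well. Over 5 further lists, 48 of 55 genes were marked (87.3%), with a median rank at the 75.5th percentile and 0.80 distal peaks per gene. Of 14 genes of fatty acid synthesis under SREBP control, 11 were marked. Scd2, a fatty acid desaturase, had 29.0 and 32.7, and Acly, which makes cytosolic acetyl-CoA, 17.2 and 18.8; Me1, Pnpla3 and Thrsp had no promoter peak. This list had 17 distal peaks, 1.21 per gene, of which 5 were near Scd2. Among genes that use the isoprenoids, 9 of 10 were marked, led by Pdss1 with 17.7 and 13.9 and Fntb with 13.3 and 13.7, and Fnta had no peak in either replicate.

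Of 14 genes of sterol sensing and sterol-driven degradation, 13 were marked. Npc1, which exports cholesterol from lysosomes, had folds of 39.8 and 41.4, higher than any of the 27 members, and its partner Npc2 had 26.2 and 26.3. Pgrmc1 had no promoter peak. Of 10 genes for the transport of SCAP to and in the Golgi, 9 were marked, with Sec24c at 21.0 and 22.3 and Sec23b at 16.5 and 16.9, and Paqr3 had none. Scap lacked a peak while most genes of its transport route had one. Of 7 partners and paralogs of the enzymes, 6 were marked. Por, which passes electrons to Cyp51 and Sqle, had 28.9 and 33.1, and Erg28 had 18.1 and 18.4. Idi2, the paralog of Idi1, had no promoter peak, while Idi1 did.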

How the data were processed

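H3K27ac was measured in 2 libraries of unstimulated macrophages. The submission has 4 peak lists with mm10 coordinates. Per the text files that accompany the samples, the authors made each replicate list from its own alignments, and the replicated and pooled lists from both replicates together. Per those files, the authors' fold is a linear ratio for each peak. The deposited significance is on a −log10 scale, as a p-value and a q-value, of which the q-value was used. Aligner, peak caller and depth are not given in the sources used here. Folds were not scaled between lists, so they were ranked within a list.

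Peaks were joined with GENCODE M21 starts of 21938 protein-coding genes (93513 starts) on GRCm38, which is mm10, and with RefSeq promoters of GRCm38.p6, in Python 3.11.15. Figures were drawn with matplotlib 3.10.9. Positions are 1-based. A promoter peak had to share at least 1 bp with the 1 kb before or after a start, and marked genes had one in both replicates. The 8 printed windows were equal to the genome. The scripts were tested on simulated data with known answers. With 1 group there was no test between conditions. The members and lists were chosen with earlier results of these data known. All 27 members were named, and from each other list the 2 marked genes of highest fold and the alphabetically first 2 that had no peak; Thrsp was added after its values were seen. One list gene is not reported here. One further list name matched no protein-coding symbol. Alternatives covered the window, the starts, the q-value, the list, the overlap, the distal distance, shared promoters and each replicate left out.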

Additional observations from a re-analysis of the deposited data

How the results depend on the processing

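The number of marked members was 26 under 7 of 10 alternatives: other windows, a stricter q-value, the replicated or the pooled list, and either replicate left out. It was 24 with the 5′ end alone (Insig2 and Pmvk lost), 25 when replicate peaks had to overlap by 50% of both (Ebp lost) and 19 of 20 without members that share a promoter. The median percentile of the members, 82.4, was 80.8 with the 5′ end alone, 86.0 without shared promoters, and 79.9 to 81.8 with a replicate left out. The median width, 1260 bp, was 1029 to 1226.5 bp with a replicate left out. The mean number of distal peaks, 0.259, was 1.19 within 100 kb, 0.148 within 10 kb, 0.222 when a peak counted for its nearest gene alone, 0.185 for peaks over 2.5 kb from every start, 0.444 in the replicated list and 0.296 with either replicate left out; the cause was not tested, beyond the wider or narrower span counted. It was below that of marked genes and of all genes under each of these. Of 250 percentiles of single members under alternatives, 41 moved by more than 1 SD between replicates, by at most 36.3, at Dhcr7. No paired analysis was possible because there was a single group. Depth was not known, so no detection limit can be given for Scap, and with 2 replicates of 1 donor entry an SD rests on 2 values.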
